A study of Mus musculus with 2 samples.

Results

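The AP-1, Nr4a and Npas4 early genes are 10 named genes, *Fos*, *Fosb*, *Jun*, *Junb*, *Jund*, *Npas4*, *Nr4a1*, *Nr4a2*, *Nr4a3* and *Arc*, of the 32285 genes counted. They were taken by name and measured in hippocampal Cajal-Retzius (CR) cells of mice at postnatal day (P) 14. The control library was made from the pooled cells of 3 male and 1 female *ΔNp73-Cre; Cic flox/+; tdT* mice, and the knockout library from 2 male and 2 female *ΔNp73-Cre; Cic flox/flox; tdT* littermates. In both groups the *ΔNp73* promoter drives Cre, which acts on the floxed *Cic* alleles and turns on the red reporter tdT, and the control mice also carry 1 floxed allele. The hippocampi were dissociated with papain, and live tdT+ cells were sorted before droplet-based single-cell RNA-sequencing. The gene *Cic* encodes Capicua, a transcriptional repressor that is relieved by signaling through the kinase ERK.

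Cells were the barcodes with at least 2000 unique molecular identifiers (UMIs, tags that count captured RNA molecules) and at least 5 UMIs of *Reln*. These were 1003 of 1011 control and 390 of 406 knockout barcodes of that depth, with medians of 6224 and 6664 UMIs per cell. All 10 CR cell markers listed, among them *Reln*, *Trp73* and *Ebf3*, were detected in 25% or more of the cells of each library. UMIs of at least 3 markers of 1 other cell type were present in 6 control and 2 knockout cells. No barcode was a cell in both libraries. *Cic* was at 58.9 counts per 1000000 (CPM) in control and 51.3 CPM in knockout cells, a ratio of 0.871 (0.714 to 1.06), and whether its UMIs came from the floxed part of the gene cannot be told from 3′ counts. By staining at a slightly later age, the authors report loss of Capicua from most but not all hippocampal CR cells of this knockout line. Some knockout cells may therefore keep it. With 1 library per genotype no difference has a replicate check, and no p-value is given. A CPM value is the UMIs of a gene summed over cells per 1000000 UMIs outside mitochondrial and ribosomal protein genes. The values in parentheses are exact 95% intervals, Poisson for levels and ratios and Clopper-Pearson for shares, and cover counting error only. Those of levels and ratios do not take in the uneven spread of UMIs over cells.

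The proteins of the Fos and Jun families join in pairs to form AP-1, a factor that binds DNA at a short recognition site. *Nr4a1*, *Nr4a2* and *Nr4a3* encode orphan nuclear receptors, *Npas4* encodes a neuronal factor known for its response to calcium entry, and *Arc* encodes a protein that acts at synapses on AMPA receptors. In neurons many of these genes, though not all, are known to be transcribed within minutes of activity or growth factor signaling. Factors such as CREB and SRF, already bound at their promoters, take part. *Jund* is known as the steady member of the family. Tissue dissociation is also known to raise AP-1 genes, and all cells here went through it.

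The promoters show what the genes share apart from their values. RefSeq promoters (build GRCm38.p6) were found for 9 of the 10 genes, all but *Arc*. The letters TGACG, the core of the site of CREB, were searched on both strands of the 250 bases before each start. They stood in 7 of the 9 promoters (*Fos*, *Fosb*, *Junb*, *Npas4*, *Nr4a1*, *Nr4a2* and *Nr4a3*) and in 17.8% of all 32851 promoters. The full palindrome TGACGTCA was in 0 of the 9 and in 1.55% of all, the AP-1 site TGACTCA in 0 and 4.46%, the Nr4a site AAAGGTCA in 0 and 1.34%, and the CArG box, the site of SRF, in 0 and 1.47%. The letters TATAAA were in *Fos* and *Nr4a2* and in 12.4% of all. The octamers known for Capicua (TGAATGAA, TGAATGGA, TCAATGAA and TCAATGGA) were in *Fos*, 50 bases before the start, and in *Nr4a1*, 231 bases before it, and in 3.19% of all. The windows of *Fos*, *Nr4a1*, *Nr4a2* and *Jun* are printed because the first 3 hold these letters and *Jun* holds none. Capitals mark the CREB core, the TATA letters or a Capicua octamer on either strand, and letters that overlap run together. A match is a description of the letters and not of a bound site, and a missing match holds only for these 250 bases. For *Jund*, the RefSeq start lay 1210 bases from the nearest start in the GENCODE annotation, so its window may not be the promoter used here. The windows of *Npas4* and *Nr4a3*, counted among the 7, overlap annotated exons by 250 and 152 bases, and that of *Fosb* by 6 bases.
Fos, chr12:85473640-85473889, plus strand: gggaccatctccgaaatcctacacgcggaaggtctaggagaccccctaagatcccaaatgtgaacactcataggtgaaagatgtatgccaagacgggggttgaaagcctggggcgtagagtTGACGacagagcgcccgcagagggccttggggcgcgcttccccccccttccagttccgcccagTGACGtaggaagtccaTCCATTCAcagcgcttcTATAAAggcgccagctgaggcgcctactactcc
Nr4a1, chr15:101266596-101266845, plus strand: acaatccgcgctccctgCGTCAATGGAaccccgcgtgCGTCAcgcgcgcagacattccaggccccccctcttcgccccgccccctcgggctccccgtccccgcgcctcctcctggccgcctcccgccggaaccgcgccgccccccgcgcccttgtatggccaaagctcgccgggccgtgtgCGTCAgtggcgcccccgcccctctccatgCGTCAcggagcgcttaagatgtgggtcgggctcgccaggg
Nr4a2, chr2:57124004-57124253, minus strand: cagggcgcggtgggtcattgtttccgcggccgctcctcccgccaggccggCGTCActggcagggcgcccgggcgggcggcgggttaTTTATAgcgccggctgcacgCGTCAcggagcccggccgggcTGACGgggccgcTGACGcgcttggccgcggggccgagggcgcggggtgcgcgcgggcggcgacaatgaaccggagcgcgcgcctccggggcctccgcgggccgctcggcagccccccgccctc
Jun, chr4:95052223-95052472, minus strand: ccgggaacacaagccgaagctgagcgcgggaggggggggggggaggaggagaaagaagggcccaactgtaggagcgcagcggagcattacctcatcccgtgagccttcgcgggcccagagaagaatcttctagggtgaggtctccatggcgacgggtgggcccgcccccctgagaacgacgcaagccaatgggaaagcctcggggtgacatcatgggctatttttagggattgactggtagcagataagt

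*Fos*, *Jund*, *Junb* and *Fosb* were the most abundant of the 10 in both libraries. *Fos* came first, at 537.9 CPM (520.3 to 555.9) in control and 504.0 CPM (477.9 to 531.2) in knockout cells. *Jund* followed at 297.3 and 275.1 CPM, *Junb* at 240.5 and 224.2 CPM, and *Fosb* at 203.7 and 168.1 CPM. *Jun* (140.1 and 156.9 CPM) and *Nr4a1* (140.7 and 124.4 CPM) traded places, and in the control their intervals overlapped. *Npas4* lay at 102.7 and 91.1 CPM, *Nr4a3* at 40.7 and 51.7 CPM, and *Nr4a2* at 21.2 and 29.6 CPM. In each library the intervals of all other neighbors in this order did not overlap, except *Fosb* and *Jun* in the knockout. *Arc* was near the limit of counting, with 13 control UMIs and 1 knockout UMI. Because 3′ UMI counts mark molecules and not lengths, these levels are compared between genes as captured molecules.

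Shares of cells ran in the same order, except that in the knockout more cells had *Nr4a1* than *Jun*. *Fos* had a UMI in 73.0% of control (70.1 to 75.7) and 68.7% of knockout cells (63.9 to 73.3), *Jund* in 63.1% and 66.9%, and *Nr4a1* in 38.0% and 40.5%. *Npas4* was detected in 31.3% and 29.0% of cells, *Nr4a3* in 16.8% and 23.8%, *Nr4a2* in 7.88% and 10.3%, and *Arc* in 0.997% and 0.256%. *Junb* (55.7% and 52.8%), *Fosb* (52.1% and 47.4%) and *Jun* (35.3% and 36.7%) lay between. These shares depend on depth: with every cell thinned to 2000 UMIs, *Fos* was left in 451 control (45.0%) and 168 knockout cells (43.1%) and *Npas4* in 14.9% and 15.4%.

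Droplets of 20 to 100 UMIs, which hold free RNA and no cell, had a median depth of 89 (control) and 44 UMIs (knockout). The AP-1 genes took a larger share of free RNA than of the RNA in cells. *Fos* stood at 2015 CPM in control and 2070 CPM in knockout droplets and was present in 13.3% and 7.20% of them. *Jun*, *Junb*, *Jund*, *Fosb* and *Nr4a1* were also higher by CPM in droplets than in cells. By contrast, *Npas4* (106.5 and 90.5 CPM) and *Nr4a2* (17.9 and 28.3 CPM) were close to their levels in cells. *Nr4a3* was lower in droplets, at 31.7 and 35.5 CPM, below the intervals of its levels in cells (36.0 to 45.9 and 43.6 to 60.9). These droplet values rest on 69 and 108 UMIs, and their own counting error was not taken into account. Per droplet, the UMIs of the 10 genes amounted to 3.40% of the mean per control cell and 1.70% per knockout cell. Because the droplets differed in depth between the libraries, these percentages are not like for like. *Arc* was not above its level in droplets in either library, with 1.97 CPM in control cells against 2.29 CPM in droplets and 0.362 CPM in knockout cells against 3.95 CPM. The genes *Jun* and *Junos*, *Junb* and *Prdx2*, and *Jund* and *Gm11175* overlap in the annotation. The strand counted is not given in the sources used here, so the counts of *Jun*, *Junb* and *Jund* are uncertain.

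**Figure D1:**
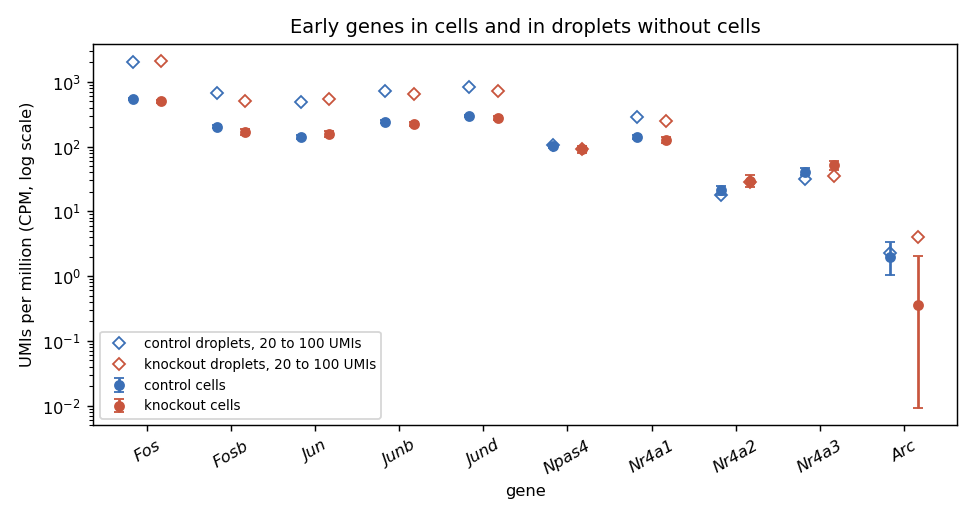
Level of each gene in CPM (log axis) in control (blue) and knockout (red) cells, as filled points with exact 95% Poisson intervals, and in droplets of 20 to 100 UMIs, as open diamonds. *Fos* is highest and *Arc* lowest in the cells of both libraries, and the diamonds lie above the points in both libraries for *Fos*, *Fosb*, *Jun*, *Junb*, *Jund*, *Nr4a1* and, on few UMIs, *Arc*.

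The first comparison asked how these genes differed between knockout and control CR cells. Together, the 10 genes were at 1727 CPM in control and 1625 CPM in knockout cells, a ratio of 0.941 (0.909 to 0.974). None of the 9 genes with at least 100 UMIs was 1.5-fold apart, while of 9442 genes 2.73% were at least 1.5-fold higher in the knockout and 1.66% at least 1.5-fold lower. Of the 9 genes 3 were above a ratio of 1 and 6 below, with a median of 0.932, against a median of 1.00 over all genes tested.

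By family and over all cells, the Fos genes were lower, with ratios of 0.937 for *Fos* (0.880 to 0.997) and 0.825 for *Fosb* (0.741 to 0.918). Within each sex, read below, the interval of *Fos* held 1, as did that of *Fosb* in female cells. Of the Jun genes, *Jun* was at 1.12 (0.997 to 1.26), *Junb* at 0.932 (0.848 to 1.02) and *Jund* at 0.925 (0.850 to 1.01), all with intervals that held 1. The Nr4a genes went apart. *Nr4a1*, the most abundant of them, had a ratio of 0.884 (0.779 to 1.00), *Nr4a2* of 1.40 (1.05 to 1.85, from 140 and 82 UMIs) and *Nr4a3* of 1.27 (1.03 to 1.56, from 269 and 143 UMIs). *Npas4* was at 0.887 (0.765 to 1.03) and *Arc*, from 13 and 1 UMIs, at 0.184 (0.00432 to 1.22).

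Because the libraries pooled different numbers of males, cells were assigned a sex where they held UMIs of only *Xist* or only Y-linked genes. The 74 control and 20 knockout cells with neither or both were left without a sex and count in the values for all cells. There were 702 male and 227 female control cells and 194 male and 176 female knockout cells. Within male cells the 10 genes together were at 0.988 (0.944 to 1.03), and within female cells at 0.932 (0.877 to 0.991). *Fos* was at 0.997 (0.919 to 1.08) in males and 1.02 (0.908 to 1.14) in females, both nearer to 1 than in all cells. The lower value of *Fos* over all cells was thus not seen within either sex. *Nr4a2* was at 1.31 (0.897 to 1.88) in males and 1.90 (1.12 to 3.31) in females, the latter from 24 control and 39 knockout UMIs. *Npas4* was at 0.951 (0.780 to 1.15) in males and 0.718 (0.554 to 0.927) in females. The difference between the sexes was not tested. With every cell thinned to 2000 UMIs, the ratio of the 10 genes together was 1.01, and *Nr4a3* turned to 0.838 while *Nr4a2* was at 1.40.

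**Figure D2:**
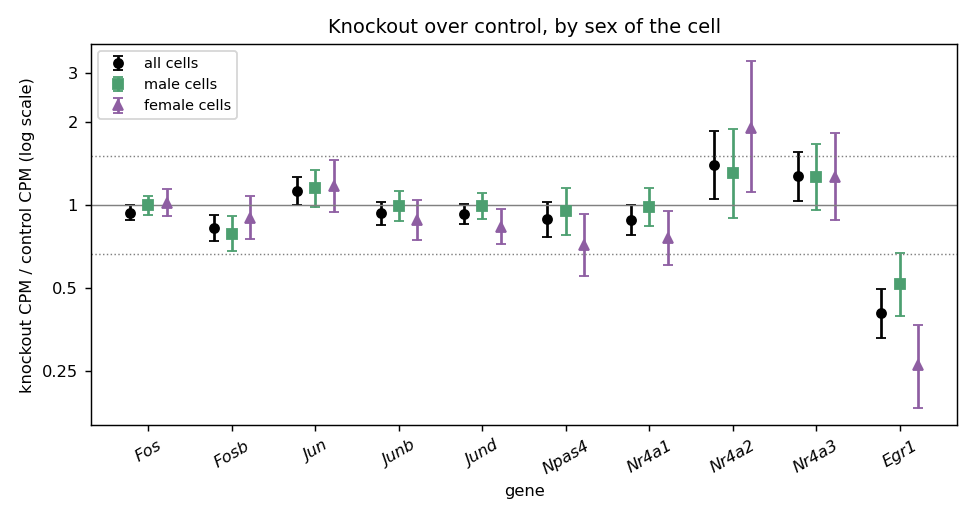
Ratio of knockout to control CPM (log axis) for 9 of the 10 genes and *Egr1* in all cells (circles), male cells (squares) and female cells (triangles), with exact 95% intervals. Dotted lines mark 1.5-fold. Among the 9 genes only *Nr4a2* in female cells, at 1.90 from 24 control and 39 knockout UMIs, lies past them. *Egr1* lies below the lower line in all 3 sets.

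Other genes of the same response were read from lists, which were chosen with earlier results of these data known. Of 15 other rapid early genes with at least 100 UMIs, 1 was at least 1.5-fold higher in the knockout and 3 were at least 1.5-fold lower. Of all genes tested, 2.73% were higher and 1.66% lower by this measure. The lower ones were *Egr1*, a zinc finger factor also induced through ERK, at 100.6 and 40.9 CPM and a ratio of 0.406 (0.330 to 0.497), *Ier2* at 0.617 (0.479 to 0.786) and *Klf10* at 0.660 (0.457 to 0.934). The higher one was *Gadd45g*, at 1.67 (1.22 to 2.28). *Btg2*, at 370.1 and 376.4 CPM, was at 1.02 (0.945 to 1.09), and the phosphatase gene *Dusp1* at 1.19 (1.09 to 1.29). The median of the 15 was 0.913. The interval of *Egr1* overlapped that of no member but *Arc*.

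Of 8 delayed activity-regulated genes, 2 were at least 1.5-fold higher and 1 lower, against 2.73% and 1.66% of all genes tested. The higher ones were *Vgf*, a secreted neuropeptide precursor, at 3.99 (3.12 to 5.12) and *Rgs2*, a regulator of G protein signaling, at 1.85 (1.26 to 2.70). *Vgf* is also named by the authors as a known target of Capicua. *Nptx2* was lower, at 0.664 (0.417 to 1.03). None of 14 genes upstream of the early genes, such as *Creb1* at 1.21 (1.05 to 1.38) and *Mef2a* at 0.901 (0.835 to 0.971), and none of 9 dimer partners passed 1.5-fold. Among the partners *Jdp2*, which encodes an AP-1 repressor, was lowest, at 0.737 (0.646 to 0.839). Of 12 heat shock genes, read because heat shock genes are also raised by dissociation, 8 were above a ratio of 1 and 4 below. Their median was 1.06. Those with the most UMIs were *Hsp90ab1* at 1.16 (1.12 to 1.21), *Hspa8* at 1.18 (1.11 to 1.25) and *Hsp90aa1* at 1.20 (1.13 to 1.27). Against 1.66% of all genes tested, 1 of the 12 was at least 1.5-fold lower, *Hspb1*, at 0.325 (0.176 to 0.561). It had 110 and 15 UMIs, in 2.69% of control and 2.05% of knockout cells.

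The UMIs of the 10 genes were unevenly spread over cells. After thinning, a cell held a median of 2 UMIs of the 10 genes in both libraries, with a highest value of 23 UMIs in a control cell and 32 UMIs in a knockout cell. No UMI of them was left in 17.3% of control and 20.3% of knockout cells. The 10% of cells with the most held 33.0% and 33.1% of the UMIs. At least 5 of the 10 genes were present in 5.48% of thinned control (4.16 to 7.08) and 6.15% of thinned knockout cells (3.98 to 9.02), and in 35.6% and 36.2% of cells as counted. No cell had all 10. The variance of *Fos* over thinned cells was 2.18 times its mean in control and 2.25 times in knockout cells, against medians of 1.07 and 1.10 over all genes with at least 100 UMIs. The 95th percentiles of these genes were 1.46 and 1.58. Above them lay 6 of 9 members in the control and 3 of 8 in the knockout, so not all members were as uneven. The genes were not matched for level, so whether this unevenness is particular to the members was not tested.

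The 10 genes were then compared pair by pair. For each pair, the number of thinned cells with a UMI of both was set against the number that the 2 single shares would give. Of the 36 pairs without *Arc*, 31 in the control and 32 in the knockout were seen together more often than that, with medians of 1.21 and 1.32 times. The same value over pairs of other genes is not given, so whether it is particular to these genes was not tested. *Fos* and *Fosb* were together in 162 control cells against 119.6 from the single shares, and in 49 knockout cells against 36.6. *Fosb* was found in 35.9% of control cells with *Fos* (31.5 to 40.5) and in 18.8% of those without (15.7 to 22.4). In the knockout these shares were 29.2% (22.4 to 36.7) and 16.2% (11.6 to 21.7).

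Pairs within the Nr4a family had a median of 1.74 times in the control and 1.93 times in the knockout. In the control *Npas4* went most with *Nr4a1* and *Nr4a3*. With *Nr4a1* it was in 44 control cells against 26.6, 1.65 times, and with *Nr4a3* in 19 against 9.51, 2.00 times. In the knockout *Npas4* was together with *Nr4a1* in 19 cells against 11.8, with *Nr4a3* in 7 against 3.23 and with *Nr4a2* in 7 against 2.46, whereas in the control *Npas4* and *Nr4a2* shared 3 cells against 4.31. *Jun* and *Nr4a1* were at 0.870 times in the control and 0.945 times in the knockout, so that these 2 genes were not found together more often than their shares gave. *Fosb* and *Nr4a2* were together in 1 knockout cell against 3.49. *Jund* with the other 8 genes had medians of 1.13 and 1.17 times. Without the respiratory-gene-high cells described next, the medians over all pairs were 1.21 and 1.30 times. Pairs share the same cells and libraries, so these values are a description.

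**Figure D3:**
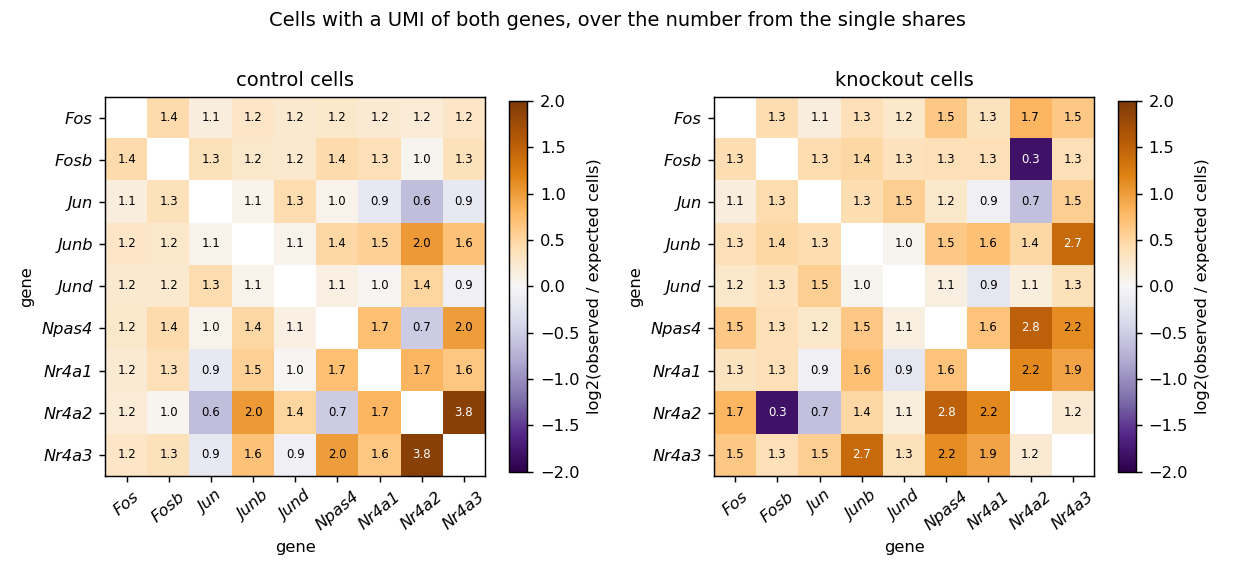
For each pair of 9 genes, the number of cells thinned to 2000 UMIs with a UMI of both genes divided by the number from their single shares, in control (left) and knockout (right) cells. Colors give log2 of this ratio, with orange above 1, and 31 of 36 control and 32 of 36 knockout pairs lie above 1.

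Some CR cells had at least 2% of their UMIs outside mitochondrial and ribosomal protein genes in nuclear respiratory chain genes. Those with at least 5 UMIs of *Pcp4* as well numbered 65 in the control and 27 in the knockout. The authors report *Pcp4*-high cells with mitochondrial terms as a cluster apart from their other CR cells. Whether the group taken here is that cluster, or a distinct cell type, was not tested. It is set by a cut through a score. By this score alone, whatever the *Pcp4* UMIs, 52 control and 20 knockout cells lay between 1.5% and 2.5%. The respiratory-gene-high cells were deeper, with medians of 14086 and 15345 UMIs against 6062.5 and 6401 UMIs in all other cells. They were 6.48% of control cells. They held 12.3% of control UMIs outside mitochondrial and ribosomal protein genes, and 28.8% of the UMIs of the 10 genes. In the knockout they were 6.92% of cells, with 14.0% and 30.4% of these UMIs.

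The AP-1 genes were high in these cells, and *Npas4*, *Nr4a2* and *Nr4a3* had intervals that held or lay below 1. *Fos* was at 1736 against 369.5 CPM in the control, 4.70-fold (4.39 to 5.03), and 4.58-fold (4.11 to 5.10) in the knockout. *Jund* was 4.39-fold (4.0 to 4.81) and 4.30-fold (3.71 to 4.98) higher, and *Jun* 2.90-fold (2.51 to 3.35) and 1.61-fold (1.26 to 2.04). *Fosb* was 1.96-fold and 1.95-fold higher and *Junb* 1.72-fold and 1.63-fold. *Npas4* was at 0.819 (0.630 to 1.05) and 1.27 (0.890 to 1.76), *Nr4a2* at 0.729 and 0.759, and *Nr4a3* at 0.541 (0.320 to 0.863) and 0.943 (0.549 to 1.54). *Nr4a1* lay between, at 1.36 and 1.22. Knockout over control, *Jun* was at 0.706 (0.550 to 0.900) within these cells and at 1.27 (1.11 to 1.45) in all other cells, on opposite sides of 1, and this difference was not tested. Of all genes with at least 100 UMIs, 53.3% in the control and 50.2% in the knockout were 1.5-fold apart between these cells and the rest, and of the 10 genes 6 of 9 and 5 of 8 were. The part that depth or the profile of these cells plays in any one gene was not tested.

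**Figure D4:**
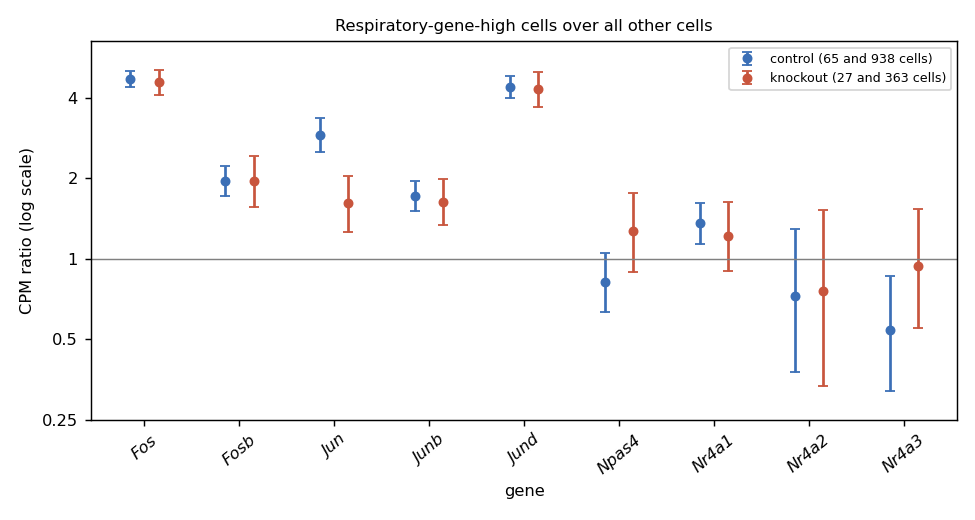
Ratio of CPM in respiratory-gene-high cells to that in all other cells (log axis) for 9 genes in the control (blue, 65 and 938 cells) and knockout (red, 27 and 363 cells), with exact 95% intervals. *Fos* and *Jund* lie above 4 in both libraries, and *Npas4*, *Nr4a2* and *Nr4a3* lie at 1.27 or below.

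The next comparisons split the CR cells by genes that mark groups of them. A cell was positive from 1 UMI. Since a deeper cell has more chance of 1 UMI, median depths are given beside each split. *Cck*, the gene of the neuropeptide cholecystokinin, was present in 324 control cells (32.3%) and 110 knockout cells (28.2%), with medians of 6397 and 6788.5 UMIs against 6148 and 6650 in the negative cells. *Npas4* was lower in the positive cells, at 79.1 against 115.2 CPM in the control, a ratio of 0.687 (0.576 to 0.816), and at 45.3 against 109.6 CPM in the knockout, a ratio of 0.413 (0.282 to 0.589). Among cells of 4000 to 8000 UMIs these ratios were 0.609 and 0.4, and without respiratory-gene-high cells 0.608 and 0.433. *Npas4* was the only one of 8 genes tested in the knockout past 1.5-fold and none of 9 passed it in the control, against 8.25% and 5.06% of all genes.

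*Fos* (1.31 and 1.27), *Jund* (1.36 and 1.27) and *Fosb* (1.25 and 1.35) were higher in *Cck*-positive cells, and the 10 genes together were at 1.18 (1.13 to 1.22) and 1.12 (1.05 to 1.19). The respiratory-gene-high cells were 8.02% of positive and 5.74% of negative control cells and 10.0% and 5.71% of knockout cells. Without them, the 10 genes together were at 1.00 and 0.997, *Fos* at 1.03 and 1.05, and *Fosb* at 1.16 (1.02 to 1.32) and 1.17 (0.922 to 1.47). *Jund* was then at 1.32 (1.17 to 1.48) in control and 1.04 (0.838 to 1.28) in knockout cells.

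*Grik1* encodes a kainate receptor subunit and was present in 194 control and 70 knockout cells, with medians of 6521 and 6917 UMIs against 6145 and 6554 in the negative cells. The 10 genes together were at 0.966 (0.922 to 1.01) in positive over negative control cells and 0.806 (0.743 to 0.872) in the knockout. *Jun* was lower in both libraries, at 0.705 (0.586 to 0.842) and 0.719 (0.543 to 0.940). *Nr4a3* was past 1.5-fold in the control, at 0.605 (0.415 to 0.858), and *Fos* and *Npas4* in the knockout, at 0.605 (0.513 to 0.708) and 0.562 (0.370 to 0.825), that is 1 of 9 and 2 of 8 genes, against 6.82% and 7.92% of all genes. *Fos* in the knockout was at 0.820 without the respiratory-gene-high cells and at 1.05 among cells of 4000 to 8000 UMIs.

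*Chst8* encodes a sulfotransferase of glycoprotein sugars and *Alkal2* a ligand of the receptor ALK. A UMI of either was present in 232 control (23.1%) and 91 knockout cells (23.3%), while droplets held 44 and 54 UMIs of them in all. Median depths were 6720.5 and 7869 UMIs in positive against 6059 and 6361 in negative cells. The 10 genes together were 1.44-fold higher in positive control cells (1.38 to 1.5) and 1.82-fold higher in positive knockout cells (1.71 to 1.93).

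*Npas4* and all 3 Nr4a genes were higher in both libraries. *Npas4* was at 163.4 against 82.7 CPM in the control, 1.97-fold (1.69 to 2.31), and at 172.6 against 60.3 CPM in the knockout, 2.86-fold (2.22 to 3.70). *Nr4a1* was 2.36-fold (2.07 to 2.69) and 2.33-fold (1.87 to 2.89) higher. *Nr4a2* was 1.91-fold (1.33 to 2.71) and 3.73-fold (2.36 to 5.98) higher, and *Nr4a3* 2.64-fold (2.06 to 3.38) and 2.47-fold (1.75 to 3.47). These 4 genes thus stood at least 1.5-fold higher in the positive cells of both libraries, with intervals that left out 1. The shares of thinned cells with *Nr4a2* were 3.45% of positive and 2.72% of negative control cells, and 9.89% and 2.34% in the knockout. For *Nr4a3* they were 10.8% and 5.06% in the control and 7.69% and 4.68% in the knockout. For *Nr4a2* in the control these shares were thus close, and all of them rest on few cells.

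The AP-1 genes split. *Jund* was level, at 1.04 (0.936 to 1.15) and 1.08 (0.921 to 1.27). *Fos* was 1.36-fold and 2.44-fold higher, *Fosb* 1.37-fold and 1.55-fold, and *Junb* 1.48-fold and 2.08-fold. *Jun* was at 1.26 (1.09 to 1.45) in control and 0.673 (0.526 to 0.852) in knockout cells. Knockout over control, *Fos* was at 1.31 (1.19 to 1.44) within positive and 0.732 (0.673 to 0.795) within negative cells, and *Jun* at 0.699 (0.544 to 0.893) and 1.31 (1.15 to 1.49), and these differences were not tested. Past 1.5-fold were 4 of 9 genes in the control and 6 of 8 in the knockout, where *Nr4a2* had under 100 UMIs, against 6.4% and 8.06% of all genes. The median of the genes tested was 1.48 and 2.20, against 0.974 and 0.993 over all genes.

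Without respiratory-gene-high cells, *Npas4* was at 1.94 and 2.40, *Nr4a1* at 2.32 and 1.93, *Nr4a2* at 2.01 and 3.37 and *Nr4a3* at 2.72 and 2.12. Among cells of 4000 to 8000 UMIs they were at 1.93 and 1.79, 2.09 and 1.97, 2.47 and 4.27, and 3.35 and 2.30. Where a cell had to be positive after thinning, the knockout values were smaller, 1.33 for *Npas4* (0.874 to 1.95), 1.67 for *Nr4a1* (1.21 to 2.26) and 0.899 for *Fos* (0.738 to 1.09), with 37 positive cells left. The 10 genes together were then at 1.11 in the knockout and 1.29 in the control. *Fos* in the knockout was at 1.60 without the respiratory-gene-high cells, which were 9.89% of its positive and 6.02% of its negative cells.

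**Figure D5:**
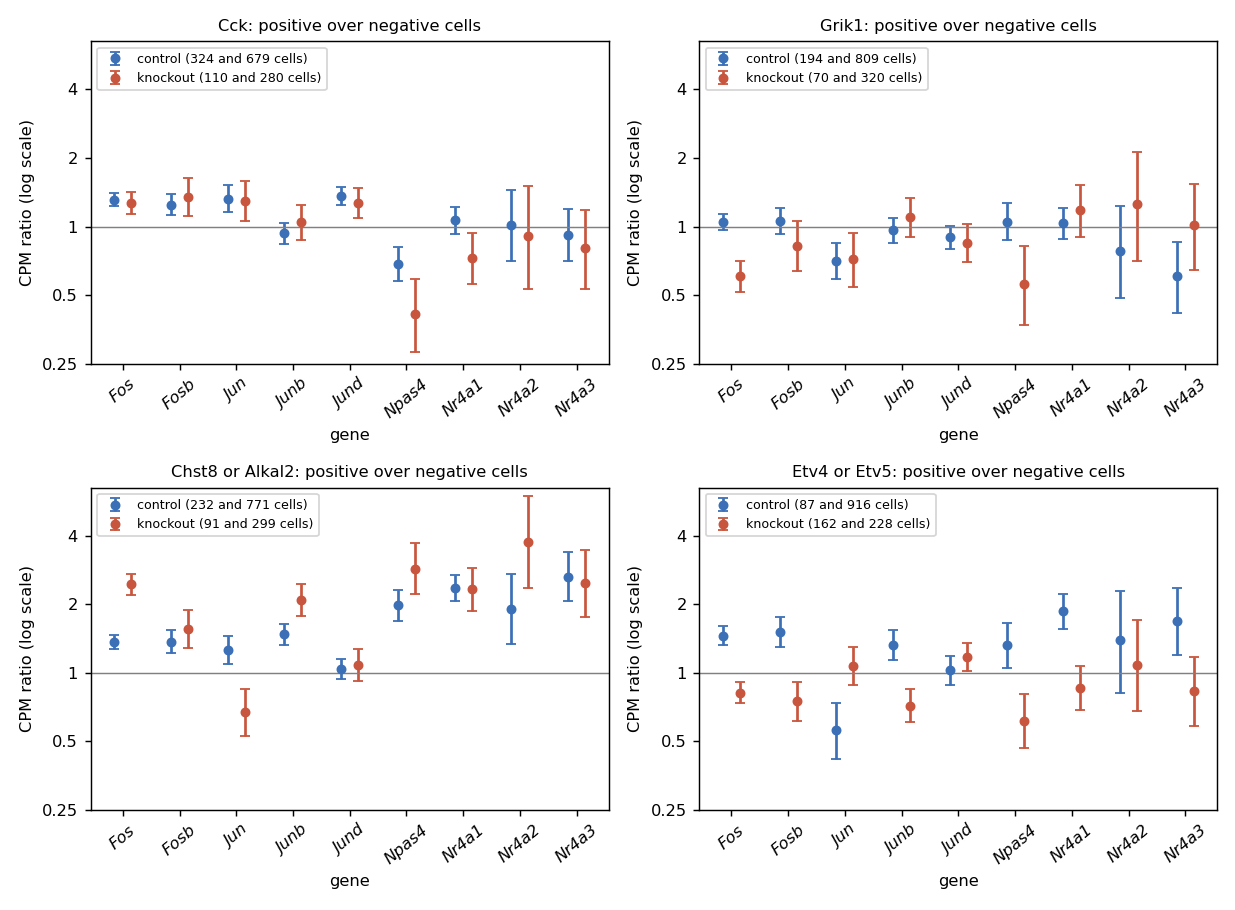
Ratio of CPM in positive to negative cells (log axis) for 9 genes, split by a UMI of *Cck*, *Grik1*, *Chst8* or *Alkal2*, and *Etv4* or *Etv5*, in the control (blue) and knockout (red), with exact 95% intervals and numbers of positive and negative cells in each legend. *Npas4* lies below 1 in the *Cck* panel and, with the Nr4a genes, above 1.5 in the *Chst8* or *Alkal2* panel in both libraries.

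*Etv4* and *Etv5*, of the PEA3 family of ETS factors, are known targets of Capicua. A UMI of either was present in 162 of 390 knockout cells (41.5%) and in 87 of 1003 control cells (8.67%), with medians of 7266 against 6210 UMIs in the knockout and 7036 against 6144 in the control. In the knockout, the 10 genes together were at 1496 CPM in positive and 1729 CPM in negative cells, a ratio of 0.865 (0.815 to 0.919). *Npas4* was at 0.615 (0.467 to 0.804), *Junb* at 0.718 (0.607 to 0.848), *Fosb* at 0.748 (0.617 to 0.906) and *Fos* at 0.818 (0.733 to 0.912). *Jund* was at 1.17 (1.01 to 1.35), *Jun* at 1.07, *Nr4a2* at 1.08, *Nr4a1* at 0.859 and *Nr4a3* at 0.830, the last 4 with intervals that held 1. *Npas4* alone of 8 genes was past 1.5-fold, against 4.94% of all genes. *Egr1* was far lower, at 12.2 against 63.7 CPM, a ratio of 0.192 (0.103 to 0.332), from 15 and 98 UMIs.

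For the 10 genes together, *Npas4*, *Junb* and *Fos* these differences were smaller at matched depth, and no such value is given for *Egr1*. Among knockout cells of 4000 to 8000 UMIs the 10 genes together were at 1.00, *Npas4* at 0.910 (0.619 to 1.33), *Junb* at 1.02 and *Fos* at 0.969, whereas *Fosb* was at 0.762 (0.567 to 1.02). Without respiratory-gene-high cells *Npas4* was at 0.807 (0.601 to 1.08).

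In the control, the few *Etv4*- or *Etv5*-positive cells were higher for most of the genes, with the 10 together at 1.32 (1.24 to 1.39). *Nr4a1* was at 1.86 (1.56 to 2.21), *Nr4a3* at 1.69 (1.19 to 2.35) and *Fosb* at 1.52 (1.30 to 1.77), and *Jun* was at 0.562 (0.420 to 0.738), making 4 of 9 genes past 1.5-fold against 10.9% of all genes. Of these positive control cells 39.1% were also *Chst8*- or *Alkal2*-positive, against 21.6% of the negative ones. In the knockout these shares were 22.2% and 24.1%.

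Set against each other, *Etv4*- or *Etv5*-positive cells of the knockout had a lower level of *Nr4a1*, 114.0 against 241.2 CPM, a ratio to the control of 0.473 (0.374 to 0.596). *Fosb* was at 0.482 (0.391 to 0.595), *Npas4* at 0.513 (0.375 to 0.700), *Junb* at 0.596 (0.491 to 0.724) and *Fos* at 0.6 (0.531 to 0.679), and *Jun* was at 1.98 (1.46 to 2.71). In negative cells *Nr4a1* was at 1.03 (0.874 to 1.20), *Fosb* at 0.977 (0.857 to 1.11), *Npas4* at 1.11 (0.926 to 1.31) and *Jun* at 1.04 (0.895 to 1.20), whereas *Nr4a3* was at 1.47 (1.13 to 1.89) and *Jund* at 0.862 (0.771 to 0.962). A positive cell is a different part of each library, 8.67% of one and 41.5% of the other.

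The genes most like the 10 were sought among 2671 other genes with at least 500 control UMIs, by Pearson correlation of thinned log values with the summed UMIs of the 10 over 1003 control cells. *Btg2* was first, with r = 0.268 in control and 0.332 in knockout cells, and *Egr1* had r = 0.239 and 0.295. Among the others of the first 10 were *Ptma*, *H3f3b*, *Map1lc3a*, *Chchd2*, *H3f3a*, *Ubb* and *Eef1a1*, with r from 0.217 to 0.255 in the control. Of these first 10 genes 4 were also among the first 10 in the knockout. The cells share library and sampling, and the median over all genes compared was -0.01.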

How the data were processed

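Single-cell RNA-sequencing of sorted hippocampal CR cells gave 2 libraries, 1 per genotype, of 16336796 control and 6777071 knockout UMIs. The authors deposited raw UMI counts per gene and barcode for all barcodes, without normalization or cell calling. The matrix header names Cell Ranger 4, the submitters' processing notes name Cell Ranger 8.0.1 and mm39, and the methods name another version and mm10. Whether intronic reads were counted, and on which strand, is not given in the sources used here. Gene identifiers were matched to GENCODE on GRCm38 (32158 of 32285, and all 10 members).

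The 10 genes and the gene lists were chosen with earlier results of these data known. Named genes were all members, for each list those with the most UMIs or the interval farthest from 1, and the 10 most correlated genes, of which some are not reported here. Cells, CPM and intervals were defined beside the results. Genes with at least 100 UMIs in the cells compared were tested against 1.5-fold, and a count of 0 was raised to 3. Thinning drew 2000 UMIs per cell without replacement, which left out no cell. No doublet caller was run, and cells above 3 median absolute deviations were removed as an alternative. The scripts (Python 3.11.15, numpy 2.4.6, scipy 1.17.1) were tested on simulated data. Alternatives covered the limits on cells, scaling, free RNA, sex, thresholds of positivity and depth.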

Additional observations from a re-analysis of the deposited data

Results flagged for a closer look

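Some genes stood on opposite sides of 1 in the 2 libraries when the same split of cells was made, with both intervals leaving out 1. These intervals cover counting error only and not the uneven spread of UMIs over cells, so they are too narrow for a difference between groups of cells. The differences between the libraries were not tested, since each genotype is 1 library. In *Etv4*- or *Etv5*-positive over negative cells, *Fos* was at 1.45 (1.32 to 1.60) in control and 0.818 (0.733 to 0.912) in knockout cells. *Fosb* was at 1.52 (1.30 to 1.77) and 0.748 (0.617 to 0.906), and *Junb* at 1.32 (1.14 to 1.53) and 0.718 (0.607 to 0.848). *Npas4* was at 1.33 (1.05 to 1.66) and 0.615 (0.467 to 0.804), and the 10 genes together were at 1.32 (1.24 to 1.39) and 0.865 (0.815 to 0.919). Among cells of 4000 to 8000 UMIs the intervals of *Fos*, *Fosb*, *Junb* and *Npas4* held 1 in both libraries.

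In *Chst8*- or *Alkal2*-positive over negative cells, *Jun* was at 1.26 (1.09 to 1.45) in control and 0.673 (0.526 to 0.852) in knockout cells. Without the 1 cell of each group with the most *Jun* UMIs, the control ratio was 1.10 (0.944 to 1.28), and among cells of 4000 to 8000 UMIs it was 0.923 (0.720 to 1.17).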

How the results depend on the processing

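No paired analysis was possible because each genotype is 1 library. For the 10 genes together, knockout over control stayed within the interval of its main value under 12 of 14 alternatives, and moved to 0.988 in male cells and 1.01 after thinning to 2000 UMIs. The number of genes past 1.5-fold was 0, and 1 in female cells. The share of cells with at least 5 of the 10 genes went in the control to 35.6% without thinning, 20.9% at 4000 UMIs, 15.2% for at least 4 genes and 0.798% for at least 6, and in the knockout to 36.2%, 18.2%, 15.6% and 1.54%. For each of the 10 genes between genotypes, 129 of 140 values under alternatives stayed within the main interval and the side of 1 changed for *Fos* in female cells, at 1.02, and after thinning for *Junb* (1.00), *Jund* (1.05), *Npas4* (1.00), *Nr4a1* (1.10) and *Nr4a3* (0.838).

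For the 10 genes together, *Cck*-positive over negative cells went in the control to 1.07 where cells had to be positive after thinning, 0.978 among cells of 4000 to 8000 UMIs, 1.10 with each cell weighted equally and 1.00 without respiratory-gene-high cells. In the knockout these were 1.33, 0.908, 1.01 and 0.997, and 1.22 from 2 UMIs. *Grik1*-positive over negative cells went in the control to 1.04 (after thinning), 0.900 (from 2 UMIs) and 1.05 (4000 to 8000 UMIs), and in the knockout to 1.17 (4000 to 8000 UMIs), 0.925 (weighted equally) and 0.976 (without respiratory-gene-high cells). *Chst8*- or *Alkal2*-positive over negative cells went in the control to 1.29 (after thinning), and in the knockout to 1.11 (after thinning), 2.01 (from 2 UMIs), 1.59 (4000 to 8000 UMIs) and 1.55 (without respiratory-gene-high cells). *Etv4*- or *Etv5*-positive over negative knockout cells went to 0.729 (after thinning) and 1.00 (4000 to 8000 UMIs). The cause of these moves was not tested.

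The alternatives for single genes in the splits, and the pairs without respiratory-gene-high cells, were chosen after seeing the data. Of 288 values, 209 stayed within the main interval, 77 moved, and 2 that had been past 1.5-fold turned to the other side of 1. In the knockout these were *Fos* by *Grik1* among cells of 4000 to 8000 UMIs, at 1.05, and *Fos* by *Chst8* or *Alkal2* after thinning, at 0.899. Depth limits *Arc*, with 13 and 1 UMIs, and *Nr4a2*, with 82 knockout UMIs.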
